A study of Mus musculus with 17 samples.

Results

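The genes described here are markers and regulators of plasmacytoid dendritic cells, with the protease gene Klk1: Siglech, Tcf4, Ccr9, Spib, Runx2 and Klk1. Of these 6, 5 are among the 18193 genes that the array annotation names by a single symbol, and every probe set carrying only their symbol was used. The genes were picked with the group differences on these same 17 arrays in view, so those differences are described below without a test. The 5 genes had 17 probe sets in all (1 for Siglech, 6 for Tcf4, 5 for Ccr9, 1 for Spib and 4 for Klk1), and Runx2 was not analysed here. The filter on dim signal kept 16 of the 17 probe sets, and all 5 genes passed it.

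The arrays measured RNA of mouse bone marrow cells sorted by whether they carry glycosylphosphatidylinositol (GPI), the lipid that anchors many proteins to the cell surface. The first batch held GPI-negative cells (3 arrays) and GPI-positive cells (3 arrays) of Pig-a knock-out mice. The deleted gene, Piga, codes for a subunit of the enzyme that starts GPI synthesis. The second batch held GPI-negative cells of C57BL/6 recipients of enriched knock-out marrow (4 arrays, here knock-out grafts), GPI-positive cells of C57BL/6 recipients of wild-type marrow (3 arrays, wild-type grafts) and GPI-positive cells of wild-type C57BL/6 mice (4 arrays, wild type). Knock-out donor marrow was treated with 10 nM aerolysin, a toxin that lyses GPI-bearing cells, for 30 minutes, and recipients were irradiated with 9 Gy; the protocols give both steps for the knock-out marrow and do not state them for the wild-type grafts. Donor genotype and GPI status cannot be told apart between the graft groups. The labels name neither the Cre driver nor ages, and the arrays of a group are called biological replicates with no animals named, so the spread may be partly technical. The sort used antibodies against CD24, CD48 and Gr-1, all GPI-anchored, on whole marrow, and the protocols give no selection for dendritic cells.

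Plasmacytoid dendritic cells are rare marrow-derived cells that sense nucleic acids in endosomes through Tlr7 and Tlr9 and release large amounts of type I interferon. Their identity depends on the E protein Tcf4, a basic helix-loop-helix factor that binds the E-box CANNTG and is opposed by Id2. The Ets factor Spib acts beside it and is also abundant in B cells, and Runx2 is needed for the mature cells to leave the marrow. At the surface they carry the lectin Siglech, which signals through the adaptor Tyrobp, and the chemokine receptor Ccr9, whose ligand is Ccl25 and which T cells also use. Klk1 encodes tissue kallikrein, a serine protease that releases kinins from kininogen.

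The promoters of the measured genes are printed because Tcf4 is among them and its recognition letters can be looked for in the others. Each runs from 250 bases before to 50 bases after the gene start in RefSeq (GRCm38.p6), read 5′ to 3′ on the gene's strand, with every CANNTG in capitals. Siglech lies at chr7:55767934-55768233 (plus strand), Ccr9 at chr9:123766961-123767260 (plus), Klk1 at chr7:44225110-44225409 (plus) and Spib at chr7:44532022-44532321 (minus).
Siglech: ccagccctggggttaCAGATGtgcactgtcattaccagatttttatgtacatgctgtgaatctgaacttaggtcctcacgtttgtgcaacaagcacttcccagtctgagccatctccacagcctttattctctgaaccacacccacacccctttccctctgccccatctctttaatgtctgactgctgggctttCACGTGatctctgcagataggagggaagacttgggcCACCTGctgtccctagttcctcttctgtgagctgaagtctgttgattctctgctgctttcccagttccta
Ccr9: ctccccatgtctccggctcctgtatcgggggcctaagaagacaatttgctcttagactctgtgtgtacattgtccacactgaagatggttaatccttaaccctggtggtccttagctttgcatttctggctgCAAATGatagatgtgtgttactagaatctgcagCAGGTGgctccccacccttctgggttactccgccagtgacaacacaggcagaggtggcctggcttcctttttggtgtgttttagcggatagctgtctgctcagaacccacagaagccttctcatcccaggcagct
Klk1: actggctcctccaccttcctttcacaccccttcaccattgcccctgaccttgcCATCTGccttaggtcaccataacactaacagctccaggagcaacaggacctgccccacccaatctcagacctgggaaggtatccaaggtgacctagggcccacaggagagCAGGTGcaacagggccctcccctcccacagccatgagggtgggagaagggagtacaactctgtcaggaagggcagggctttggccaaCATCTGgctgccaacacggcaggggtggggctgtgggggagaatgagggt
Spib: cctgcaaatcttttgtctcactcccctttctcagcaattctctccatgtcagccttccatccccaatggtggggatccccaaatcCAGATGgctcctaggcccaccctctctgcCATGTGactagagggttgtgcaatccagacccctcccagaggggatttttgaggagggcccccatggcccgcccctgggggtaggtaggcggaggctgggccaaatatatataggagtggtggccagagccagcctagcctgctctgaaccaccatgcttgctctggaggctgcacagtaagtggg
Siglech and Klk1 each held 3 matches to CANNTG, and Ccr9 and Spib held 2 each. The first base of the match nearest to the start stood at -20 in Siglech, at -85 in Ccr9, at 1 in Klk1 and at -136 in Spib, counting the first transcribed base as 1. CAGGTG occurred in Ccr9 at -85 and in Klk1 at -87. These letters are common: 72.3% of 32851 promoters of the same length held at least 1 match, with a median of 1. GAGGAA, letters of an Ets site, and TGTGGT, letters of a Runx site, were searched on both strands and occurred in 28.3% and 16.8% of promoters. Siglech held 1 match to each, on its minus strand, and the other promoters held neither.

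Values below are log2 values: the authors' log10-scale array signal divided by the log10 of 2, with arrays centred on a common median. Differences carry the standard error (SE) of 1 linear model over all arrays (limma, 12 residual degrees of freedom), and groups are compared only within a batch. For a gene with several probe sets the brightest stood for the gene. Piga checked the labels: its log2 value was 1.67, 1.92 and 1.65 in knock-out GPI-negative cells, against 3.70, 3.54 and 4.11 in knock-out GPI-positive cells. It was 0.31, 0.28, 0.92 and 0.54 in knock-out grafts, against 4.12, 4.25 and 4.02 in wild-type grafts and 4.07, 4.18, 4.30 and 4.27 in wild type. Within each batch the sorted deposited values of all arrays were identical. Among the brighter genes the median SD was 0.174 over knock-out GPI-negative arrays but 0.064 over knock-out GPI-positive arrays, an uncommonly small spread, so counts of genes called in the knock-out are followed by the count with the 3 averaged to 1 sample where that changes it. In such bulk RNA, fewer cells of a type and less RNA per cell cannot be told apart.

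Siglech was higher in GPI-negative cells in both settings. On its only probe set it reached log2 values of 4.97, 5.01 and 4.52 in knock-out GPI-negative cells, against 2.38, 2.61 and 2.54 in knock-out GPI-positive cells. The groups did not overlap, and the difference was 2.32 ± 0.20 (log2 ± SE, n = 3 and 3), or 4.99-fold. After transplantation it was 4.68, 4.22, 4.26 and 3.87 in knock-out grafts, against 2.04, 1.63 and 2.43 in wild-type grafts. Those groups did not overlap either, and the difference was 2.23 ± 0.19 (n = 4 and 3), 4.68-fold. Wild type lay between the graft groups at 2.97, 3.01, 2.56 and 3.02, so that knock-out grafts exceeded it by 1.37 ± 0.17 (n = 4 each). Within the second batch the order was therefore knock-out grafts, wild type and wild-type grafts, with no overlap between neighbours.

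By brightest probe sets, Ccr9 had the widest difference of the members in the knock-out; with the mean of all kept probe sets it was 1.76, below Siglech (2.32) and Klk1 (1.91). Its brightest probe set gave log2 values of 5.43, 5.46 and 5.47 in knock-out GPI-negative cells, against 2.54, 2.49 and 2.66 in knock-out GPI-positive cells. That is 2.89 ± 0.23, or 7.40-fold. Knock-out grafts were less even, at 4.52, 4.48, 4.19 and 3.16, against 2.06, 1.97 and 2.37 in wild-type grafts, a difference of 1.95 ± 0.22 without overlap. The lowest of the knock-out grafts, 3.16, fell inside the wild-type range of 2.79 to 3.23, and the difference to wild type was 1.11 ± 0.20. Of the other 4 probe sets of Ccr9, 1 was too dim to keep. The remaining 3 were higher in knock-out GPI-negative than in GPI-positive cells, by 1.34, 2.15 and 0.67. They were higher in knock-out grafts than in wild-type grafts by 0.70, 0.81 and 0.17, and only the last of these pairs of graft groups overlapped. The first and last of the 3 were dim in knock-out GPI-positive cells, with mean percentiles of 36.0 and 23.5, against 67.6 and 49.0 in knock-out GPI-negative cells. The filter kept them mainly through GPI-negative arrays, so they are not read as agreement between probe sets.

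Tcf4 was higher in GPI-negative cells by less than either surface gene. Its log2 values were 5.24, 4.88 and 5.20 in knock-out GPI-negative cells, against 3.70, 3.88 and 3.76 in knock-out GPI-positive cells, 1.32 ± 0.14 apart. They were 5.27, 4.82, 5.30 and 4.91 in knock-out grafts, against 4.36, 4.41 and 4.60 in wild-type grafts, 0.62 ± 0.13 apart. Neither pair overlapped. Wild type, at 4.49, 4.86, 4.62 and 4.59, overlapped the knock-out grafts, which were higher by 0.43 ± 0.12. Among the other 5 probe sets, 4 were higher in knock-out GPI-negative than in GPI-positive cells by 1.00 to 1.60, and by 0.37 to 0.58 in knock-out than in wild-type grafts. The last was the dimmest and differed by 0.21 ± 0.19 and -0.11 ± 0.18 in these 2 comparisons. It had mean log2 values of 1.01 in knock-out GPI-negative cells and 0.80 in knock-out GPI-positive cells.

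Spib did not follow the other members after transplantation. In the knock-out it was 5.95, 6.43 and 6.18 in GPI-negative cells, against 5.68, 5.70 and 5.59 in GPI-positive cells, a difference of 0.53 ± 0.17 without overlap. In knock-out grafts it was 6.98, 6.38, 7.32 and 7.04, against 6.96, 7.30 and 7.23 in wild-type grafts. These overlapped, and the difference was -0.23 ± 0.16. Wild type was the highest of the second batch at 7.49, 7.67, 7.63 and 7.52, above every knock-out graft, with knock-out grafts minus wild type at -0.65 ± 0.15. B cells, in which Spib is abundant, were represented by 5 measured markers of 6 listed (Cd79a, Cd79b, Ms4a1, Ebf1 and Pax5). Of these, 3 rose in knock-out GPI-negative cells (1 with the GPI-positive arrays averaged) and none fell, 0 passed between the graft groups by limma (1 lower at an unadjusted p under 0.05), and 2 fell in knock-out grafts against wild type (1 with those arrays averaged). Their summed signal ran from 228.9 to 288.1 in knock-out GPI-negative cells, against 165.3 to 174.4 in knock-out GPI-positive cells. It ran from 277.8 to 550.9 in knock-out grafts, against 335.8 to 538.4 in wild-type grafts and 450.4 to 590.6 in wild type. None of these marker values was 0, and their part in the Spib values was not tested.

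By brightest probe sets, Klk1 had the largest difference of the members between the graft groups; with the mean of all kept probe sets it was 1.79, below Siglech (2.23). Its brightest probe set gave 4.97, 4.68, 4.49 and 3.42 in knock-out grafts, against 1.78, 1.50 and 1.74 in wild-type grafts, 2.72 ± 0.26 apart, or 6.57-fold. In the knock-out it was 3.96, 4.11 and 3.79 in GPI-negative cells, against 1.41, 1.73 and 1.74 in GPI-positive cells, 2.33 ± 0.28 apart. In wild type it was 2.94, 2.15, 2.07 and 2.01, below every knock-out graft, and knock-out grafts exceeded wild type by 2.09 ± 0.24. No pair of these groups overlapped. Another pair of Klk1 probe sets differed by 2.55 and 2.71 in the knock-out and, between graft groups, by 2.23 and 2.46. The fourth probe set differed by 0.04 ± 0.17 in the knock-out and, between graft groups, by -0.25 ± 0.16, with every pair of groups overlapping.

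**Figure D1:**
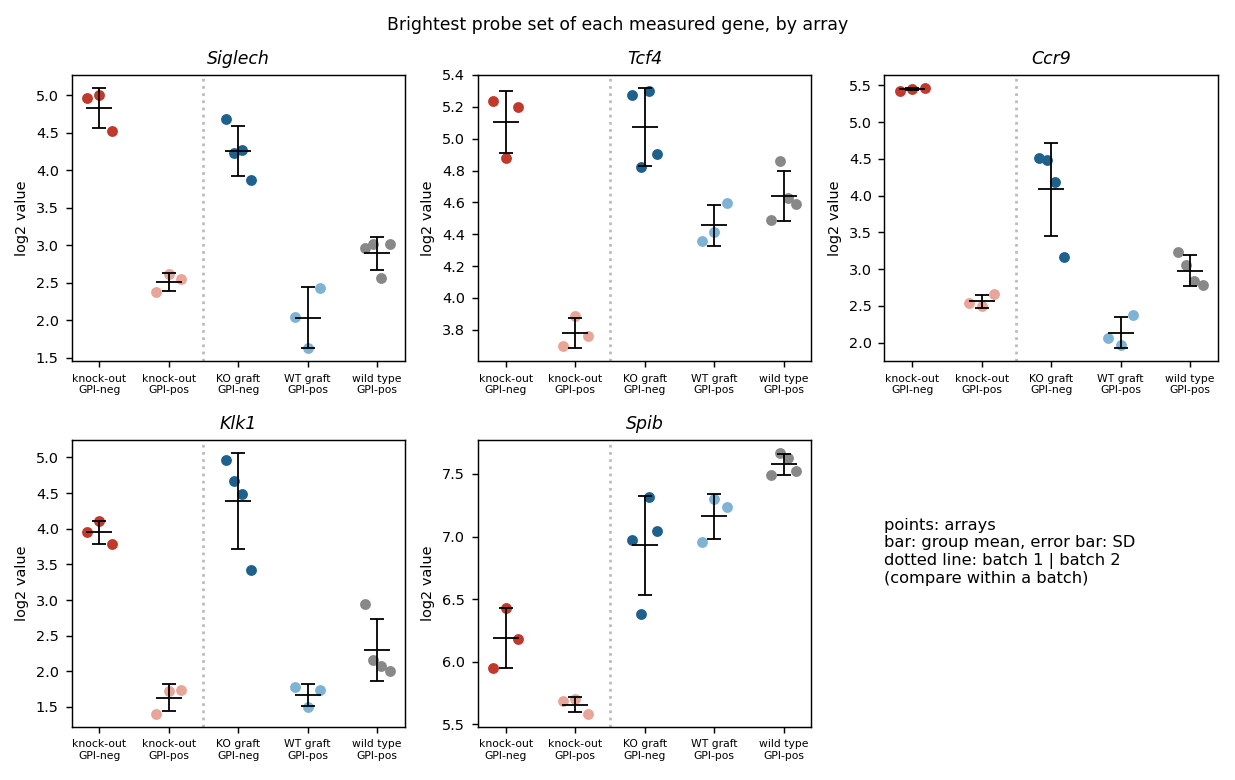
Log2 value of the brightest probe set of Siglech, Tcf4, Ccr9, Spib and Klk1 on each array, by group, with the first batch left of the dotted line and bars at group means. Knock-out GPI-negative arrays lie above GPI-positive ones in all 5 panels, and knock-out grafts lie above wild-type grafts in every panel but that of Spib.

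**Figure D2:**
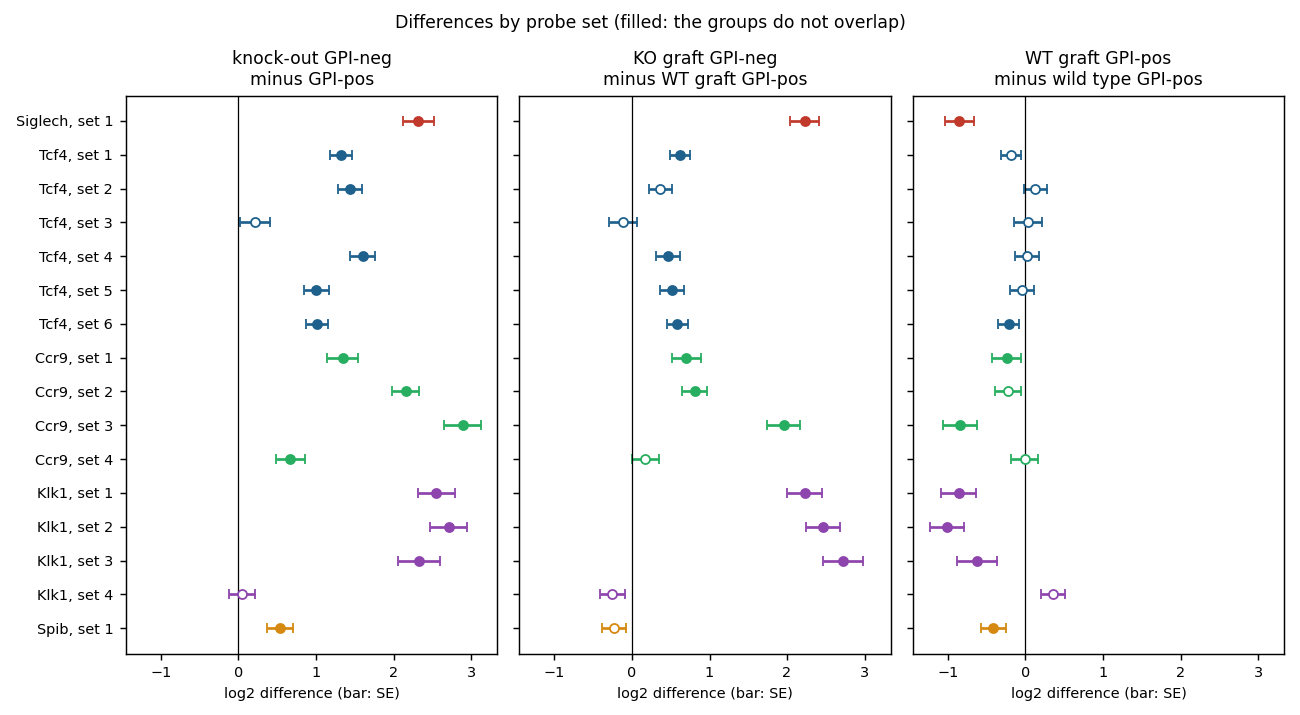
Log2 difference with its SE for each kept member probe set. Panels show the knock-out comparison, knock-out against wild-type grafts, and wild-type grafts against wild type. Knock-out grafts against wild type are not drawn. Siglech, the bright Ccr9 probe set and 3 of the 4 Klk1 probe sets lie near or above 2 in the knock-out, while the fourth Klk1 probe set and the dimmest Tcf4 probe set lie near 0.

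Counted together, all 5 measured members were higher without overlap in knock-out GPI-negative cells than in GPI-positive cells, where 22% of the 14245 genes tested were. Knock-out grafts were higher than wild-type grafts without overlap for 4 of 5 members, where 8% of genes were. Against wild type, knock-out grafts were higher without overlap for 2 members, with 9.32% of genes, and lower for 1, with 7.04% of genes. The members were picked on these contrasts, so nothing is read from these counts. Over the 16 kept probe sets, the difference was positive for 16 in the knock-out, for 13 between graft groups and for 14 between knock-out grafts and wild type. Some of the Ccr9 probe sets were kept mainly through GPI-negative arrays, so nothing is read from these counts either. The contrasts of knock-out grafts with wild-type grafts and with wild type share the knock-out graft arrays.

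The wild-type grafts were also set against wild type, a comparison with no GPI-negative cells. The wild-type graft arrays are among those on which the members were picked, so these differences too are described without a test. Siglech was lower in wild-type grafts by a log2 difference of -0.86 ± 0.19, and all 3 wild-type grafts lay below all 4 wild-type arrays. Ccr9 differed by -0.85 ± 0.22, Klk1 by -0.62 ± 0.26, Spib by -0.42 ± 0.16 and Tcf4 by -0.19 ± 0.13. Siglech, Ccr9, Klk1 and Spib were lower in wild-type grafts without overlap, as were 5.86% of all genes, and nothing is read from that count. With the mean of all kept probe sets in place of the brightest, the Ccr9 difference was -0.33.

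Many other genes of plasmacytoid dendritic cells were higher in GPI-negative cells. The list held 39 genes that are no members, of which 36 were tested. This and the other gene lists were chosen with earlier results of these data known. Counts and p-values of listed genes therefore describe these arrays and are no independent evidence. In the knock-out 22 rose and 1 fell in GPI-negative cells against GPI-positive cells, with a median log2 difference of 0.74 against -0.01 over all genes, where 14.8% of genes rose and 14.8% fell. In knock-out grafts 18 rose and 0 fell against wild-type grafts, with a median of 0.53 against -0.01, where 3.95% of genes rose and 3.45% fell. Against wild type 16 rose and 0 fell, with a median of 0.32 against 0.02, where 6.84% of genes rose and 5.55% fell. In wild-type grafts against wild type 0 rose and 2 fell, with a median of -0.16 against 0.02, where 0.449% of genes rose and 0.393% fell. These shares of all genes also belong beside the other list counts in the same comparisons, except those with arrays averaged. At an unadjusted p under 0.05 in the limma fit, 1 gene was lower in knock-out grafts than in wild-type grafts, 3 were lower than in wild type, and 1 was higher in wild-type grafts than in wild type. The count of 22 was 16 with the knock-out GPI-positive arrays averaged to 1 sample, and the count of 1 was then 0.

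Surface proteins were the first group within that list, with 11 of 13 tested. In knock-out GPI-negative cells 6 rose and 1 fell (5 and 0 with the GPI-positive arrays averaged), and in knock-out grafts 7 rose and 0 fell against each of wild-type grafts and wild type. Bst2, a restriction factor that blocks virus release and itself carries a GPI anchor, averaged 4.98 ± 0.24 in knock-out GPI-negative cells and 2.96 ± 0.04 in knock-out GPI-positive cells (log2 mean ± SD, n = 3 each). Its difference was 2.02 ± 0.16 in the knock-out (limma adjusted p = 5.6e-09) and 1.60 ± 0.15 between graft groups (adjusted p = 9e-07). Cd7 (3.36 ± 0.22) and Cd2 (3.06 ± 0.17), which T and NK cells also carry, rose furthest in the knock-out and rose by 1.88 and 0.69 in knock-out grafts against wild-type grafts. Havcr1 rose by 1.16 in the knock-out and, between graft groups, by 1.36, and the lectin Clec10a by 1.01 and 1.26. Havcr1 was dim where it was low, averaging 1.20 in knock-out GPI-positive cells and 0.77 in wild-type grafts. The sizes of its differences are therefore uncertain. Nrp1, a semaphorin and growth factor co-receptor, rose by 1.09 ± 0.19 in knock-out grafts against wild type. Klra17 was the gene that fell in the knock-out, at -0.54 ± 0.15 (limma adjusted p = 0.0085). It was higher by 0.71 ± 0.14 in knock-out grafts than in wild-type grafts (limma adjusted p = 0.0024). Against wild type, Klra17 differed by 0.04 ± 0.13 in knock-out grafts (limma adjusted p = 0.89). It fell in wild-type grafts against wild type, at -0.67 ± 0.14 (limma adjusted p = 0.023).

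Of the 12 regulators tested, 6 rose and 0 fell in knock-out GPI-negative cells (3 and 0 with the GPI-positive arrays averaged), and 3 rose in knock-out grafts against each of wild-type grafts and wild type (2 each with those arrays averaged). Irf8, which dendritic cells and B cells need, was 7.05, 6.79 and 7.35 in knock-out GPI-negative cells, against 5.73, 5.84 and 5.72 in knock-out GPI-positive cells (1.31 ± 0.13, limma adjusted p = 2.1e-07). It rose by 0.84 ± 0.12 between graft groups. Ikzf2, a zinc-finger factor of the Ikaros family, rose by 2.12 ± 0.18 in the knock-out and, between graft groups, by 1.02 ± 0.17. The cytokine receptor Flt3 rose in the knock-out by 0.90 ± 0.20 and differed by 0.46 between graft groups (adjusted p = 0.15). Mycl was also among the 6, at 1.33, 1.70 and 1.66 in knock-out GPI-negative cells, against 0.67, 0.70 and 0.60 in knock-out GPI-positive cells. It was dim where it was low and depended on the GPI-negative groups to pass the filter, so its calls are not read as results. Irf7, the master factor of interferon induction, differed by 0.18 ± 0.19 in the knock-out (adjusted p = 0.54) and rose by 0.59 ± 0.18 in knock-out grafts against wild-type grafts (adjusted p = 0.049). It fell in wild-type grafts against wild type, at -0.80 ± 0.18 (adjusted p = 0.039).

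Of the 13 other enriched genes tested, 10 rose in knock-out GPI-negative cells (8 with the GPI-positive arrays averaged), 8 in knock-out grafts against wild-type grafts and 6 against wild type, and 0 fell by limma, with 0, 1 and 2 lower at an unadjusted p under 0.05. Cox6a2, a respiratory chain subunit, was 4.57, 4.19 and 4.25 in knock-out GPI-negative cells, against 2.45, 2.41 and 2.51 in knock-out GPI-positive cells. It rose by 1.88 ± 0.19 in the knock-out and, between graft groups, by 1.55 ± 0.18. Pacsin1, a membrane-shaping adaptor, rose by 1.49 ± 0.16 and 0.86 ± 0.15, and the lysosomal protease Ctsl by 1.26 ± 0.16 and 1.60 ± 0.15. Upb1, an enzyme of pyrimidine breakdown, rose by 1.03 ± 0.18 in the knock-out and 1.32 ± 0.17 between graft groups. Atp1b1, a sodium pump subunit, rose by 1.25 ± 0.15 in the knock-out and differed by -0.18 ± 0.14 between graft groups. Pld4, an endosomal nuclease, showed the other order, with 0.36 ± 0.16 in the knock-out (adjusted p = 0.11) and a rise of 1.05 ± 0.15 between graft groups. The difference between these 2 comparisons, tested by itself, passed for Atp1b1 (limma adjusted p = 8.8e-05) and for Pld4 (limma adjusted p = 0.034).

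Of the 36 genes, 14 rose in both the knock-out and the graft comparison, which share no array: 63.6% of the 22 and 77.8% of the 18. Of all 14245 genes, 2.11% rose in both. Since the list was chosen with earlier results known, nothing further is read from the gap between these shares. With the knock-out GPI-positive arrays averaged, 13 of the 36 rose in both. The 14 were Bst2, Cd2, Cd7, Clec10a, Cox6a2, Ctsl, Havcr1, Ikzf2, Irf8, Pacsin1, Ptprs, Rnase6, Tex2 and Upb1. Of these, Havcr1 was dim in wild-type grafts (mean log2 value 0.77). The difference between the comparisons passed in 12 of the 36, 9 with the larger value in the knock-out and 3 with the larger value in the grafts, where 19% of all genes passed. With the knock-out GPI-positive arrays averaged, it passed in 6, 5 of them with the larger value in the knock-out.

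**Figure D3:**
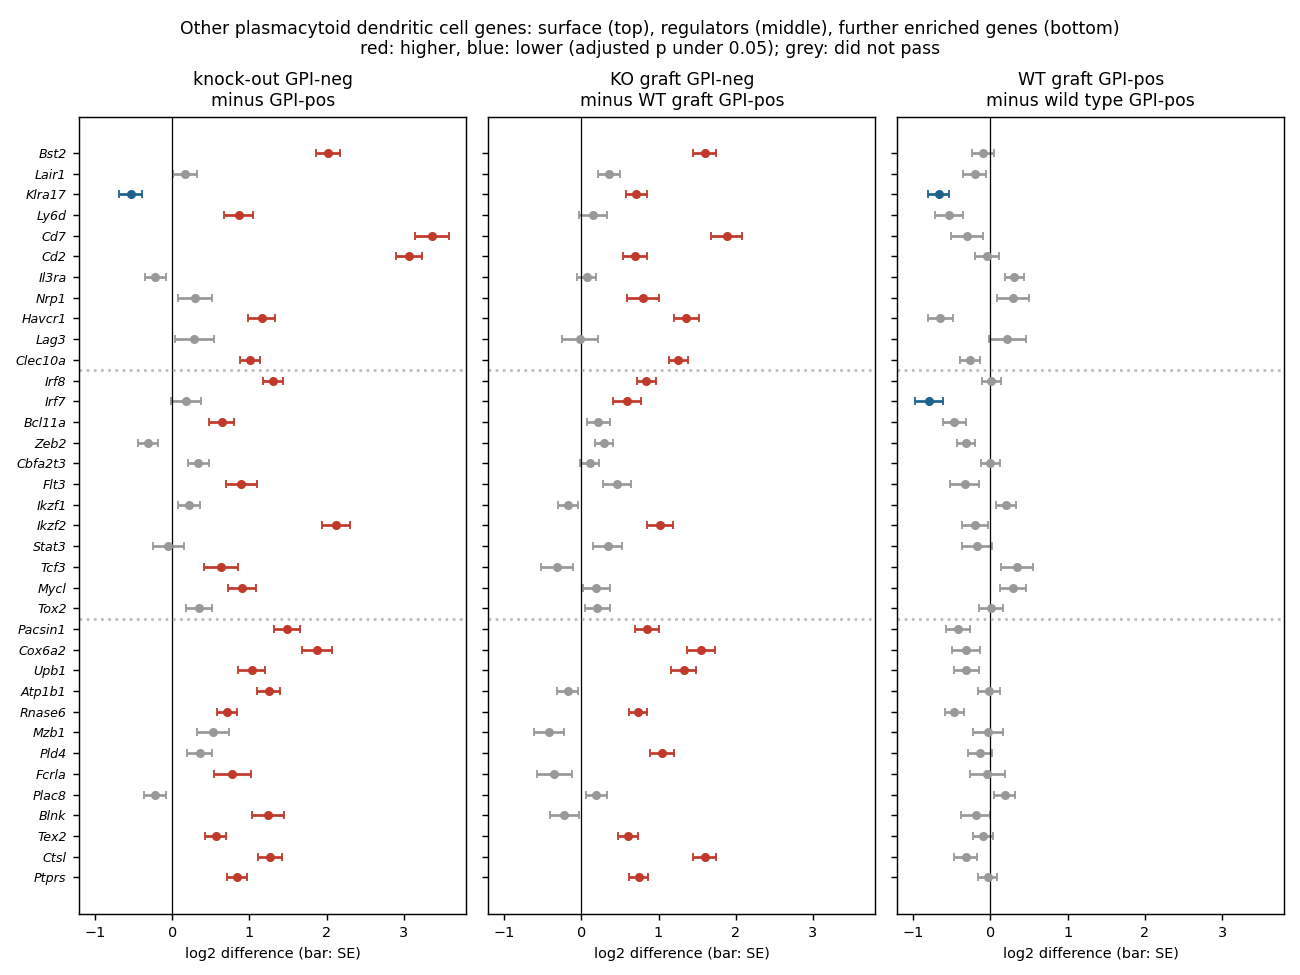
Log2 differences of the 36 tested plasmacytoid dendritic cell genes that are no members, with the knock-out and the graft comparisons side by side. Most points lie above 0 in both, with medians of 0.74 and 0.53.

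The sensing pathway these cells use was described in the same way. Of 11 tested genes of endosomal sensing and type I interferon signalling, 0 rose and 1 fell in knock-out GPI-negative cells by limma. Of all genes 14.8% rose and 14.8% fell there, so nothing is read from these counts. The median was 0.18, and at an unadjusted p under 0.05 the counts were also 0 and 1. The gene that fell was Myd88, the adaptor of Tlr7 and Tlr9, at -0.41 ± 0.12. With the knock-out GPI-positive arrays averaged, none fell. In knock-out grafts 5 rose against wild-type grafts (Irf7, Tlr7, Ifnar1, Slc15a4 and Ifnar2), where 3.95% of all genes rose, and 4 rose against wild type, where 6.84% rose. Tlr7, the sensor of single-stranded RNA, rose by 0.57 ± 0.15 in the first of these, and the histidine transporter Slc15a4 by 0.52 ± 0.13. Tlr9, the sensor of CpG DNA, differed by 0.33 ± 0.17 in the knock-out (adjusted p = 0.15) and by -0.19 ± 0.16 between graft groups (adjusted p = 0.57).

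Partners of Tcf4 changed in the knock-out. Of 7 E proteins and inhibitors, 4 rose and 1 fell in knock-out GPI-negative cells, where 14.8% of all genes rose and 14.8% fell. Between graft groups 0 passed by limma, nor did any at an unadjusted p under 0.05, where 3.95% of all genes rose and 3.45% fell by limma. The E proteins Tcf3 and Tcf12 rose by 0.63 ± 0.22 and 0.72 ± 0.14, and so did the inhibitors Id2 (0.86 ± 0.20) and Id3 (0.80 ± 0.21), while Id1 fell by 1.46. The difference between the knock-out and the graft comparison, tested by itself, passed for Tcf3, Tcf12, Id1 and Id3 (limma adjusted p up to 0.032) and not for Id2 (0.79 ± 0.28, adjusted p = 0.054). With the knock-out GPI-positive arrays averaged, 1 of the 7 rose in the knock-out. Between graft groups Id2 differed by 0.07 ± 0.19 (adjusted p = 0.89). In knock-out grafts against wild type 0 rose and 1 fell: Id3, at -0.72 ± 0.18 (limma adjusted p = 0.0092), opposite to its rise in the knock-out.

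Relatives of Spib and Runx2 were called in both directions. Of 9 tested, 3 rose (Ets1 by 0.92, Runx3 by 0.62 and Elf1 by 0.62) and 3 fell in knock-out GPI-negative cells. Of all genes 14.8% rose and 14.8% fell there, and nothing is read from the counts of these relatives. Those that fell were Spi1, the myeloid Ets factor (-0.74 ± 0.14), Runx1 (-0.62 ± 0.15) and Fli1 (-0.58). With the knock-out GPI-positive arrays averaged, 1 rose and 1 fell. Between graft groups 0 passed by limma, with 2 higher at an unadjusted p under 0.05. In knock-out grafts against wild type 3 rose and 1 fell. Spi1 was among those that rose, at 0.41 ± 0.12 (limma adjusted p = 0.027), opposite to its fall in the knock-out, and Runx3 rose by 0.47 ± 0.13. Cbfb, the shared partner of Runx factors, differed by 0.02 ± 0.13 in the knock-out and, between graft groups, by 0.01 ± 0.12.

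The adaptor of Siglech fell in the knock-out. Tyrobp, which myeloid and NK cells also use, was 8.76, 8.52 and 8.50 in knock-out GPI-negative cells, against 9.66, 9.73 and 9.84 in knock-out GPI-positive cells (-1.15 ± 0.16, limma adjusted p = 1.4e-05). Between graft groups it differed by 0.36 ± 0.15 (adjusted p = 0.18). Of the 10 genes of other Siglecs and their signalling, 2 rose and 5 fell in the knock-out, where 14.8% of all genes rose and 14.8% fell. Between graft groups 0 passed by limma, with 2 higher and 1 lower at an unadjusted p under 0.05. Siglece (-1.36 ± 0.12), Cd33 (-1.21 ± 0.18) and Siglecf (-0.98 ± 0.17), which granulocytes and monocytes carry, fell, while the B-cell Siglecs Siglecg (0.53) and Cd22 (0.46) rose. In knock-out grafts against wild type 1 rose and 1 fell: Siglecg fell there, at -0.70 ± 0.14 (limma adjusted p = 0.0019). The counts of 2 and 5 were 0 and 4 with the knock-out GPI-positive arrays averaged, and the count of 2 was also 0 without knock-out GPI-negative replicate 2 or knock-out GPI-positive replicate 1. Neutrophil markers fell beside them: 4 of 4 (Elane, Mpo, Camp and Ltf), with summed signal of 2364 to 2766 in knock-out GPI-negative cells, against 4912 to 5075 in knock-out GPI-positive cells. Between graft groups 2 of the 4 neutrophil markers fell, Elane at -1.06 and Mpo at -0.70, where 3.45% of all genes fell. None of the Siglec list passed in that comparison. No neutrophil marker value was 0, and the part of neutrophils in the Siglec values was not tested.

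Among homing genes, 5 of 11 rose and 1 fell in knock-out GPI-negative cells (5 and 0 with the GPI-positive arrays averaged), and 4 rose in knock-out grafts against wild-type grafts. Of all genes 14.8% rose and 14.8% fell in the knock-out, and 3.95% rose between graft groups. Cxcr3 rose by 3.03 ± 0.23 and 1.75 ± 0.22 in these comparisons, Ccr7 by 2.32 ± 0.15 and 0.92 ± 0.14, and the integrin subunit Itgb7, which pairs with Itga4 for entry into the gut, by 1.35 ± 0.16 and 1.30 ± 0.15. S1pr1, the receptor for exit from tissue, rose by 1.53 ± 0.12 in the knock-out and differed by 0.28 ± 0.12 between graft groups (adjusted p = 0.17). Ccr2 showed the other order, with 0.02 ± 0.21 in the knock-out and a rise of 1.03 ± 0.20 between graft groups. Ccl25, the ligand of Ccr9, differed by -0.32 ± 0.13 in the knock-out (adjusted p = 0.073) and by -0.03 ± 0.12 between graft groups.

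Few kallikreins could be measured beside Klk1. The list of the kallikrein family and the kinin system held 29 genes, of which 11 were tested, among them the kinin receptor Bdkrb1. In the knock-out 2 rose and 0 fell, where 14.8% of all genes rose, and 1 rose in each graft comparison with knock-out cells. That gene, Klk1b27, a close relative of Klk1 whose probes may share its transcript, was 2.58, 2.04 and 2.36 in knock-out GPI-negative cells, against 0.41, 0.91 and 0.63 in knock-out GPI-positive cells. It passed the filter on dim signal through the groups in which it was high: it reached the 40th percentile on 3 of 3 knock-out GPI-negative arrays and 4 of 4 knock-out grafts, against 0 of 3 knock-out GPI-positive arrays, 0 of 3 wild-type grafts and 2 of 4 wild-type arrays. Its call is therefore not read as a result, and no size is given for its differences. Klk8, the other that rose in the knock-out, differed by 1.58 ± 0.16 there and by 0.41 ± 0.15 between graft groups (adjusted p = 0.097). A probe set annotated to both Klk1b9 and Klk1b22 was 1.69, 1.70 and 1.43 in knock-out GPI-negative cells, against 0.64, 0.93 and 0.99 in knock-out GPI-positive cells. It was dim where it was low, as Klk1b27 was, so no size is given for its differences. Whether these probe sets measure their own genes or Klk1 was not tested.

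Markers of T and NK cells rose with the members. All 6 T-cell markers (Cd3d, Cd3e, Cd3g, Cd8b1, Cd28 and Lat) rose in knock-out GPI-negative cells and in knock-out grafts against both wild-type groups. Their summed signal ran from 363.9 to 389.2 in knock-out GPI-negative cells, against 28.5 to 30.1 in knock-out GPI-positive cells. It ran from 54.1 to 130.9 in knock-out grafts, against 18.8 to 26.5 in wild-type grafts and 20.9 to 32.1 in wild type. All 3 measured NK-cell markers of 4 listed rose in the same comparisons, with sums of 163.0 to 192.7 in knock-out GPI-negative cells, against 15.4 to 17.5 in knock-out GPI-positive cells. Their sums ran from 26.6 to 59.1 in knock-out grafts, against 9.59 to 10.3 in wild-type grafts and 13.3 to 15.7 in wild type. No value of these lists was 0. Ccr9 and Tcf4 are also used by T cells, and the part of T and NK cells in the members' values was not tested.

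Plasmacytoid dendritic cell markers beside the members were Bst2, Irf7, Irf8, Ly6d, Pacsin1, Cox6a2, Lair1, Klra17, Pld4, Tlr7 and Tlr9. A linear sum is carried by the brightest: in wild type Ly6d averaged 7.66 and Irf8 5.96 (log2), against 1.49 for Tlr9, 1.78 for Pacsin1 and 2.15 for Tlr7. The sum therefore does not show these cells to be present in a group. The summed signal of the 11 markers ran from 400.8 to 439.3 in knock-out GPI-negative cells, against 217.2 to 232.7 in knock-out GPI-positive cells. It ran from 345.8 to 408.4 in knock-out grafts, against 224.1 to 282.0 in wild-type grafts and 286.5 to 363.8 in wild type. Of these 11, 5 rose and 1 fell in the knock-out, and 8 rose and 0 fell between graft groups (4 and 0 in the knock-out, 7 and 0 between graft groups, with the GPI-positive arrays averaged). Conventional dendritic cell markers rose in 2 of 6 measured in each of these comparisons, with Xcr1 and Batf3 dim (group means of 0.70 to 1.36, log2). Monocyte markers rose in 4 of 4 in knock-out grafts against wild-type grafts. In the knock-out they went both ways: Ly86 differed by 0.46, Ccr2 by 0.02, Csf1r by -0.39 and Cd14 by -0.81. The monocyte list, which holds Ccr2, summed to 375.5 to 526.5 in knock-out grafts, against 227.9 to 280.4 in wild-type grafts and 250.2 to 298.8 in wild type. This list summed to 260.5 to 365.1 in knock-out GPI-negative cells, against 323.9 to 335.4 in knock-out GPI-positive cells. No value was 0, and its part in the rises of Pld4, Tlr7 and Ccr2 was not tested. Of 4 osteoblast markers, 0 passed in either comparison by limma, nor did any at an unadjusted p under 0.05. All 4 were dim, with group means of 0.90 to 1.57 (log2), so nothing is read from the lack of calls. Plasma-cell markers split in the knock-out, with 1 of 4 rising and 2 falling (0 and 1 with the GPI-positive arrays averaged), and 0 passed between graft groups by limma (2 lower at an unadjusted p under 0.05). Both measured erythroid markers fell in knock-out grafts against wild-type grafts and neither passed in the knock-out.

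**Figure D4:**
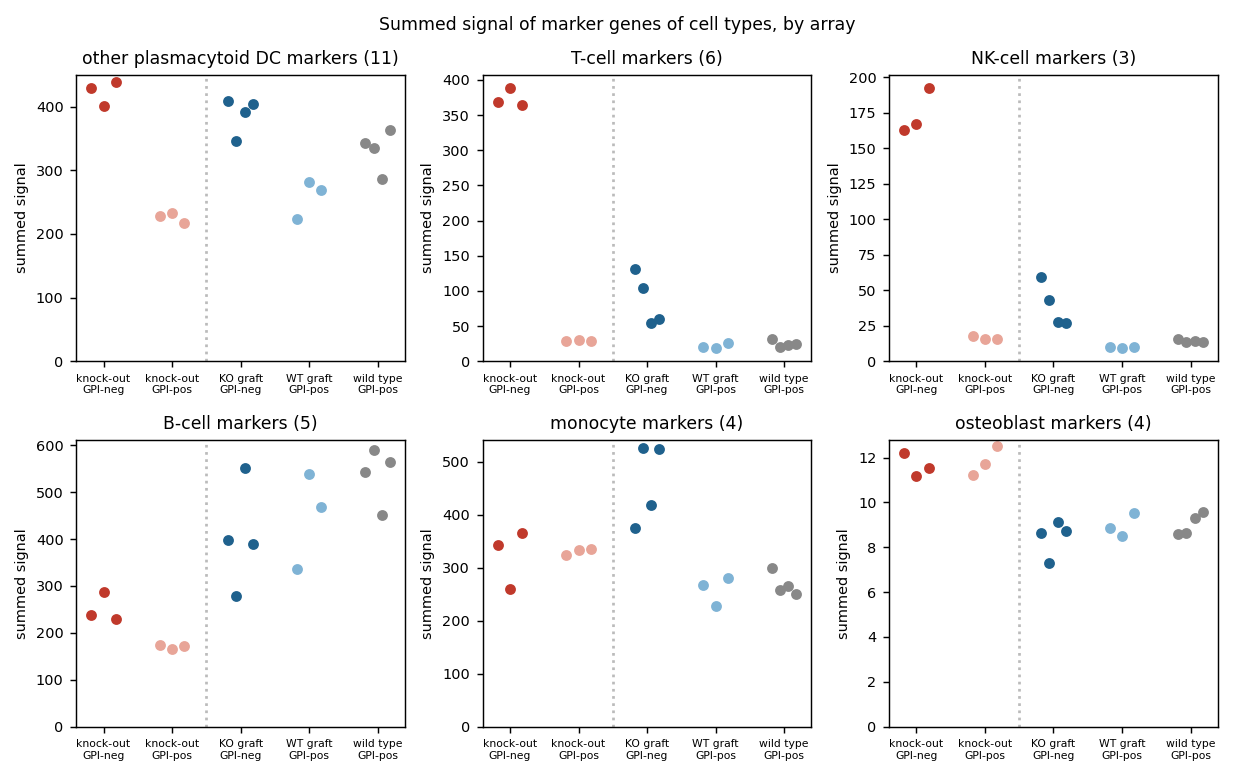
Summed linear signal of marker lists on each array, by group, on axes that start at 0. T-cell and NK-cell sums in knock-out GPI-negative cells stand far above those in knock-out GPI-positive cells, and B-cell sums in the knock-out grafts overlap those of the wild-type grafts.

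The genes whose profile came closest to Siglech included another member. Likeness was the root mean square difference of log2 values over the 17 arrays after each batch's mean was subtracted, so a small number means a near-identical profile. For Siglech the nearest were D13Ertd608e (0.25), Bst2 (0.30), Ccr9 (0.31), Cox6a2 (0.31) and Klk1b27 (0.35). For Klk1 the nearest were Siglech (0.37), D13Ertd608e (0.42), Ccr9 (0.42), Ms4a6b (0.43) and Gimap7 (0.47). The same measure for the other members was added after their values had been seen. Ccr9 came closest to Gimap8, D13Ertd608e, Siglech, Txk and Themis (0.28 to 0.32), Tcf4 to Cd69, Gpr18, Mndal, Peak1 and Tox (0.12 to 0.16), and Spib to Siglecg, Pou2af1, Lrmp, Slc1a5 and Blk (0.13 to 0.14). Between members the smallest difference was that of Siglech and Ccr9, at 0.31, and the largest that of Spib and Klk1, at 1.30. The arrays are shared by all genes and the groups differ in many of them, so these numbers only describe the profiles.

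**Figure D5:**
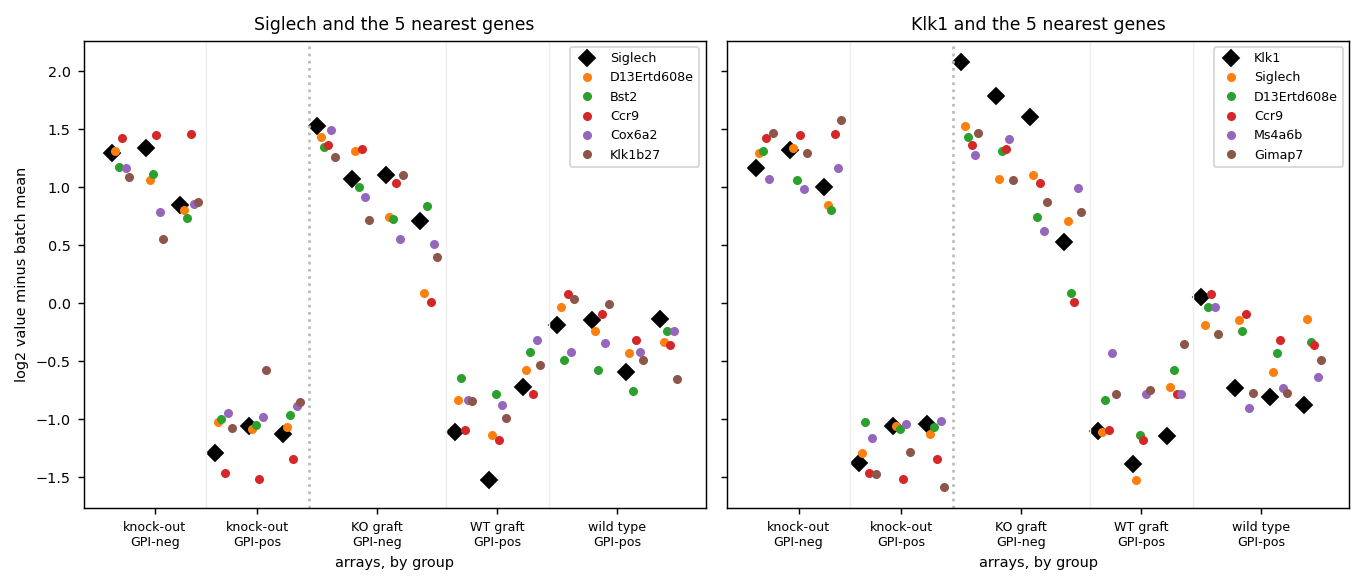
Log2 value minus the batch mean on each array for Siglech and its 5 nearest genes, and for Klk1 and its 5 nearest, with diamonds for the member itself. Siglech and its neighbours share, by group means, the order knock-out GPI-negative over GPI-positive in the first batch and knock-out grafts over wild type and wild-type grafts in the second.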

How the data were processed

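Total RNA of sorted marrow was labelled and measured on Affymetrix arrays of 45101 probe sets, per the labels' protocols, with less RNA put into labelling in the first experiment than in the second. The authors' deposited table holds values on a log10-like scale; its base was read from the values. Against log10 concentration, hybridisation controls had a slope of 0.991 ± 0.082 in the first batch and 1.13 ± 0.034 in the second (SD over arrays). Sorted values were identical within each batch, so the deposited values had been quantile-normalized per batch. How background was corrected and probes were summarised is not given in the sources used; GCOS is named in the submitters' processing notes.

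The deposited values were converted to log2 and centred on a common median. After 64 control probe sets were removed, 34945 carry 1 symbol, 932 several and 9160 are unnamed here; 34741 of those with 1 symbol matched a RefSeq table (GRCm38.p6). A probe set was kept at or above the 40th percentile of its array on at least 3 arrays (32426 kept), and the brightest stood for its gene (14245 genes). limma 3.58.1 in R 4.3.3 fitted 5 group means (lmFit, eBayes with trend), with Benjamini-Hochberg adjustment over all genes and a threshold of 0.05. The number of arrays limits the precision. The procedure was tested on simulated data with the same spread in every group and changes added only to knock-out grafts. The real groups differed in spread, so that test does not cover the counts in the knock-out.

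Members and gene lists were chosen with earlier results of these data known. A test of the members in wild-type grafts against wild type had been planned and was replaced by a description, since the wild-type graft arrays were in view when members were picked. Named genes were the members, at most 4 passing genes per list and comparison by size, stated partners of members, and the 5 genes nearest to Siglech and to Klk1; Ptprs, Rnase6, Tex2, Elf1, Fli1, Cd22, Tlr9 and the genes nearest to other members were named after their values were seen. Same-numbered arrays did not deviate together (r from -0.18 to 0.098 over genes), and the main fit did not pair samples. With so few arrays per group, this check cannot exclude that same-numbered arrays came from the same animals. Alternatives covered centring, normalization, filters, probe sets, batches fitted alone, variance trend, a replicate block and single arrays left out.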

Additional observations from a re-analysis of the deposited data

Results flagged for a closer look

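Single arrays stood apart in their group of 4 in 8 of 134 checks, and chance flags about 1 in 20. Wild type gave 7 of these, each on 1 array. Siglech was lowest at a log2 value of 2.56, with the other wild-type arrays at 2.97 to 3.02. Klk1 on its brightest probe set was highest at 2.94, with the others at 2.01 to 2.15. The highest wild-type value also stood apart for Cbfb (7.05), Clec10a (2.83), Cxcr3 (2.73), Flt3 (2.40) and Klra17 (4.68). In knock-out grafts Havcr1 was highest at 2.56, with the others at 1.95 to 2.02.

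The difference between the knock-out comparison and the graft comparison, tested by itself in limma over all genes, passed for 25 of 50 named genes that are no members, and for 13 with the knock-out GPI-positive arrays averaged. Most of these genes were named for a large difference in one of the comparisons, so nothing is read from that share. It was positive, with the larger value in the knock-out, for Cd2 (2.37), Cd7 (1.48), Atp1b1 (1.43), Ccr7 (1.40), Cxcr3 (1.28), S1pr1 (1.25), Klk8 (1.16), Id3 (1.12), Ikzf2 (1.10), Tcf3 (0.95), Siglecg (0.86), Tcf12 (0.83) and Mycl (0.71). It was negative for Id1 (-1.52), Tyrobp (-1.51), Cd33 (-1.30), Klra17 (-1.25), Siglece (-1.24), Spi1 (-1.03), Ccr2 (-1.02), Siglecf (-0.77), Irf5 (-0.76), Myd88 (-0.74), Pld4 (-0.69) and Ifnar2 (-0.67). Adjusted p-values from limma ran from 6.9e-06 for Cd2 to 0.0497 for Mycl. Mycl was dim in knock-out GPI-positive cells, so its difference is not read as a result. Tyrobp was lower in knock-out GPI-negative cells (-1.15) and differed by 0.36 between graft groups, and Klra17 by -0.54 and 0.71. Against wild type, Klra17 differed by 0.04 in knock-out grafts and by -0.67 in wild-type grafts. The batches that hold these comparisons were normalized separately, and the part of the batch in these differences was not tested.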

How the results depend on the processing

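Of 560 values of 20 member differences under alternatives, 338 equalled the reported value to within 1e-06, many of them by construction (an array of another group left out, for example), and they say nothing on stability. Of the 222 that differed, 8 moved by more than the replicate spread and 0 changed sign. Siglech in wild-type grafts against wild type ran from -1.06 to -0.65 with single arrays left out and was -0.90 with a replicate block, and Ccr9 ran from -0.97 to -0.76 and was -1.03 with the block.

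Averaging all kept probe sets of a gene gave 1.10 for Tcf4 and 1.76 for Ccr9 in the knock-out, 0.41 for Tcf4, 0.91 for Ccr9 and 1.79 for Klk1 between graft groups, 0.58 for Ccr9 and 1.25 for Klk1 in knock-out grafts against wild type, and -0.33 for Ccr9 in wild-type grafts against wild type. Single probe sets turned the sign for the dimmest Tcf4 probe set (-0.11 between graft groups, -0.082 for knock-out grafts against wild type, 0.030 for wild-type grafts against wild type), for another pair of Tcf4 probe sets (0.13 and 0.020) in wild-type grafts against wild type, and for the fourth Klk1 probe set (-0.25 between graft groups, 0.36 in wild-type grafts against wild type).

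Of the 36 other plasmacytoid dendritic cell genes, those lower in the knock-out numbered 2 with quantile normalization over all arrays, with a filter at the 60th percentile and with batches fitted alone, and 0 with knock-out GPI-positive arrays averaged. Those lower in wild-type grafts against wild type numbered 1 without the trend and 1 with the replicate block, 0 with the arrays averaged, and 0 to 3 with single arrays left out. Those lower in knock-out grafts against wild type numbered 0 to 2 with single arrays left out. The causes were not tested, except that averaging leaves fewer samples. The block, by replicate number, left every member difference within the replicate spread of its reported value.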
